A study of Mus musculus with 24 samples.

Results

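Lacrimal gland stem cells (LGSCs) grown as spheres were compared between day 10 and day 7 of passage 2. The comparison was made of the 6 RNA sequencing libraries labelled for these days, 3 at each day and paired by replicate number, out of the 21 of 24 listed samples of the study whose values were used. The genes compared were those with a mean FPKM of 0.5 or more in these libraries, which gave 15487 of 63862 rows (11950 Ensembl genes and 3537 assembled loci without an identifier). FPKM stands for fragments scaled to transcript length and to library size, so that levels can be set side by side between genes of different length. The study as a whole followed spheres at days 5, 7, 10 and 14 and set them beside adult and embryonic lacrimal gland (LG).

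Both groups came from the LG of healthy C57BL/6 mice aged 6 to 8 weeks, without a transgene or deletion. The glands were dispersed with enzymes and single cells were grown in Matrigel mixed with LGSCM, a serum-free DMEM/F12 medium with N2, B27, murine EGF, FGF10, Wnt3A and Y-27632, a kinase inhibitor. Spheres were passaged as single cells after 7 days of culture, so the day 10 spheres of passage 2 had been kept 3 days beyond that point. The labels do not say whether the replicate numbers stand for separate mice or cultures, so the p-values measure the spread between these samples, which may be technical. In bulk RNA, fewer cells of a type and less RNA per cell cannot be told apart.

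Spheres of a gland epithelium grow by division of their stem and progenitor cells, which copy their DNA in S phase and separate the copies in mitosis. Genes of the replication machinery are switched on by E2F factors at the start of S phase, and genes of the spindle and of cytokinesis are switched on later, through promoters that carry the cell cycle genes homology region (CHR). EGF and FGF10 act through receptor kinases and ERK, and Wnt3A through beta-catenin, and both are known to sustain the growth of gland progenitors in culture.

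The reads recovered from the deposited values numbered 7360565 to 7833161 in the 6 libraries, and the ratio of these reads to the scale of the values was 0.832 to 1.008. Replicate 2 stood apart from replicates 1 and 3 on both days. The median absolute log2 difference between libraries of 1 day was 0.28 to 0.40 where replicate 2 was a partner and 0.20 to 0.24 between replicates 1 and 3, while within a pair day 10 differed from day 7 by 0.21 to 0.24. Replicate 2 was low in Krt18, a keratin of simple epithelium (689, 130.1 and 1195 at day 7 and 1260, 176 and 1143 at day 10 FPKM). It was high in Krt1, a keratin of stratified epithelium (0, 467 and 0.228 at day 7 and 0.0462, 1304 and 0.142 at day 10 FPKM). The summed FPKM of the 31 suprabasal markers was 1944 and 5725 in replicate 2 and 80.7 to 156 in the other 4 libraries. Because the pairs hold such differences apart from the day, the replicate number was kept as a block in the fit, and values are given in the order of replicates 1, 2 and 3.

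The epithelial label was checked against its markers. Of 19 general epithelial markers, 10 were tested. Cdh1 (E-cadherin) was at 684, 445 and 719 FPKM at day 7 and 916, 428 and 553 FPKM at day 10. Between the days 0 of the 10 had an unadjusted p-value under 0.05, against 7.88% of all genes, which does not bear on the label. Their median log2 difference, day 10 minus day 7, was 0.27, with medians of 0.53, 0.05 and -0.06 in pairs 1, 2 and 3. Krt17, a keratin of basal cells, was at 2519, 4123 and 3018 FPKM at day 7 and 2771, 2817 and 2428 FPKM at day 10. Krt14, which the study used to mark stem cells, had 6.51, 17.8 and 9.53 FPKM at day 7 and 6.43, 15.7 and 4.41 FPKM at day 10, and Krt5 and Trp63 were at or below 2.73 FPKM in all 6 libraries. The levels of such genes have to be read with care, since Epcam, Krt8, Gapdh and Mki67 were listed at 0 in all 6 libraries and in the tissue libraries too. Of 5333 genes with at least 10 FPKM in the library of passage 10 spheres, which was made against another gene list, 652 (12.2%) were listed at 0 in all 6 libraries and 2687 (50.4%) had a mean under 0.1 of their passage 10 level. The comparisons below are therefore between days within 1 gene, and a gene listed at 0 gives no statement on its expression. Markers of other cell types were sparse. Fap and Kdr were listed at 0 in all 6 libraries, which by itself says nothing on these cell types. Kdr was at 0 to 0.314 FPKM in adult LG too. The filter was reached by 3 of 25 fibroblast, 2 of 12 endothelial, 4 of 21 leukocyte, 2 of 8 fat cell and 4 of 16 muscle and nerve markers. The summed FPKM was 49.9 to 96.2 for the fibroblast list (mostly Snai2, with 72.7, 93.8 and 47.9 at day 7 and 49.7, 63.3 and 55.9 at day 10) and 2.74 to 5.71 for the leukocyte list.

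No single gene passed the test between day 10 and day 7. The adjusted p-value (limma, Benjamini-Hochberg over 15487 genes) was under 0.05 for 0 genes (0.0%), and its lowest value was 0.329. At an unadjusted p-value under 0.05, 645 genes (4.16%) were higher and 576 (3.72%) were lower at day 10, or 7.88% in all. With upper-quartile scaling this balance turned to 545 higher and 713 lower genes. Without the block 0 genes passed and 475 had an unadjusted p-value under 0.05, and limma-voom on recovered reads passed 0 genes with the block, with 1170 under 0.05 before adjustment. By sign alone, 15.6% of genes were higher and 14.7% lower in all 3 pairs, and in 4.16% each the 3 libraries of day 10 lay entirely above or entirely below those of day 7 (8.33% in all). These shares are the background against which the gene lists are read. The genes named below had adjusted p-values of 0.329 to 0.996, and every log2 fold change is the fitted difference of log2(FPKM + 1), day 10 minus day 7, with its standard error.

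Among the gene lists with at least 7 members tested, that of the mitotic spindle and cytokinesis had the lowest median at day 10. Of its 87 members, 52 were tested, and 35 of these (67.3%) were lower at day 10 in all 3 pairs against 14.7% of all genes, while 1 was higher in all 3 pairs. At an unadjusted p-value under 0.05, 15 members (28.8%) were lower against 3.72% of all genes and 0 were higher. The median log2 fold change was -0.32, with medians of -0.48, -0.26 and -0.15 in pairs 1, 2 and 3, against 0.01 over all genes tested. Without replicate 2 the median was -0.38 and 5 members were lower at that p-value, and without the block 1 was. Of the 35 members not tested, 7 were listed at 0 in all 6 libraries and 27 had at least 5 FPKM in the passage 10 library.

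The 3 members of the mitotic list with the smallest p-values that passed 10 FPKM act at successive steps of mitosis. Plk1, the polo-like kinase that drives entry into mitosis, had 38.9, 81.7 and 44.1 FPKM at day 7 and 22.0, 59.1 and 29.0 FPKM at day 10. Ccnb1, the cyclin that activates CDK1 at entry, had 25.1, 47.8 and 23.2 FPKM at day 7 and 12.5, 28.3 and 18.1 FPKM at day 10. Cdc20, which activates the anaphase-promoting complex, had 106, 229.8 and 87.2 FPKM at day 7 and 49.4, 171 and 65.2 FPKM at day 10.

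All 3 genes were lower at day 10 in each replicate, but the day 10 library of replicate 2 lay above the day 7 libraries of replicates 1 and 3, so that the groups overlapped. The log2 fold changes were -0.61 ± 0.11 for Plk1 (adjusted p = 0.594, limma), -0.67 ± 0.15 for Ccnb1 (adjusted p = 0.628) and -0.64 ± 0.17 for Cdc20 (adjusted p = 0.631). Without replicate 2 they were -0.69, -0.64 and -0.75.

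The groups did not overlap in 4 of the 52 members (7.69%), near the 8.33% of all genes, and 3 of these were lower at day 10 (5.77% against 4.16%). Mybl2, or B-Myb, a transcription factor that acts with the MuvB complex on mitotic promoters, had 0.839, 1.85 and 1.04 FPKM at day 7 and 0.366, 0.645 and 0.449 FPKM at day 10 and a log2 fold change of -0.57 ± 0.16. Anln (anillin, which bundles actin at the cleavage furrow) had 4.56, 10.7 and 5.79 FPKM at day 7 and 4.08, 4.31 and 3.32 FPKM at day 10, a log2 fold change of -0.64 ± 0.23. Tacc3, a spindle protein, was at a low level with 0.699, 0.792 and 0.566 FPKM at day 7 and 0.223, 0.512 and 0.325 FPKM at day 10.

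The 1 member that was higher without overlap was Pttg1, or securin, the inhibitor of separase, with 23.4, 24.7 and 24.7 FPKM at day 7 and 27.4, 27.7 and 31.4 FPKM at day 10 and a log2 fold change of 0.24 ± 0.11. Among the other members, Ube2c, the ubiquitin-conjugating enzyme of the anaphase-promoting complex, had 56.3, 119.8 and 54.6 FPKM at day 7 and 34.5, 88.0 and 47.5 FPKM at day 10. Smc2, a core subunit of condensin, had 21.5, 35.7 and 20.1 FPKM at day 7 and 12.4, 21.6 and 17.3 FPKM at day 10. Their log2 fold changes were -0.44 ± 0.13 and -0.55 ± 0.15, and both were lower in each pair with groups that overlapped. Kif18b, a kinesin of astral microtubules, and Sgo1, which protects cohesin at centromeres, had log2 fold changes of -0.59 ± 0.18 and -0.47 ± 0.13.

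**Figure D1:**
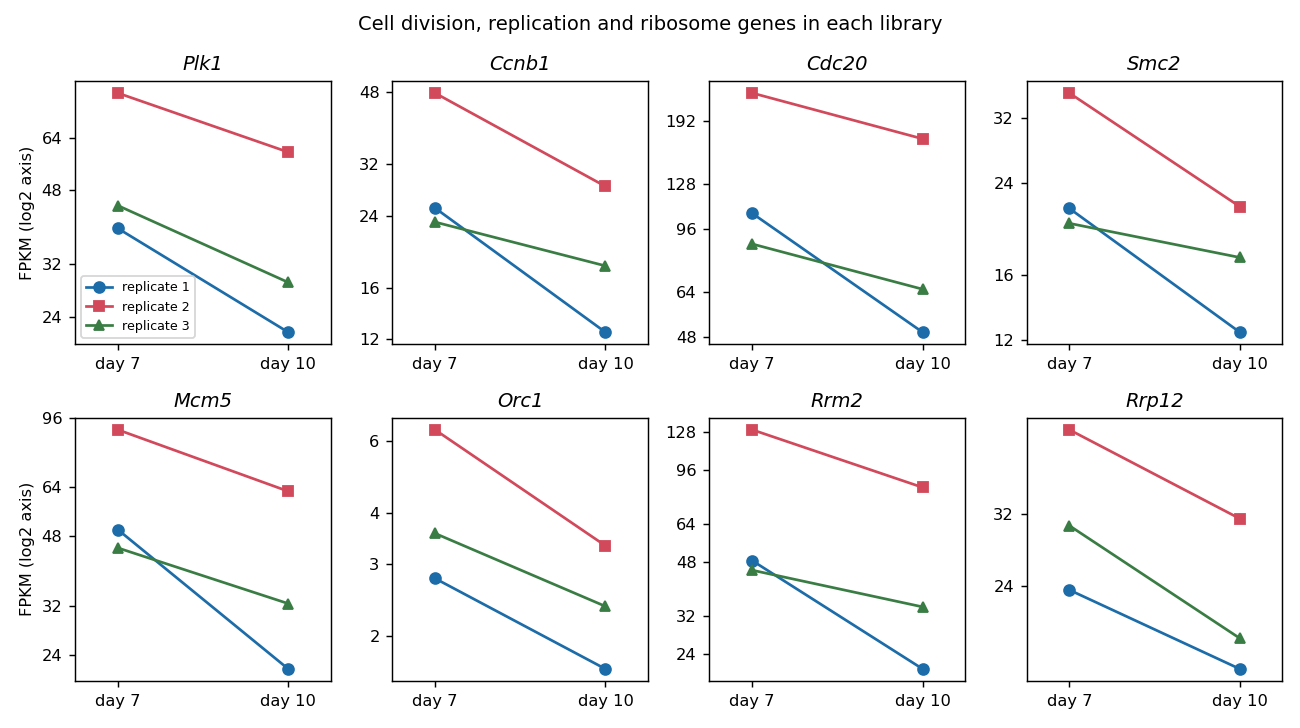
FPKM on a log2 axis at day 7 and day 10 for 8 genes of mitosis (Plk1, Ccnb1, Cdc20, Smc2), replication (Mcm5, Orc1, Rrm2) and ribosome assembly (Rrp12). Each line joins the 2 libraries of 1 replicate number, and all lines go down while replicate 2 stays above the others in every panel, as for Plk1 with 81.7 and 59.1 FPKM in replicate 2.

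Promoters were read for the mitotic and replication lists because most of their tested members (47 of 52 and 36 of 44) had negative log2 fold changes. The windows reach from 250 bases before to 50 bases after the start of transcription and come from RefSeq (GRCm38.p6). The CHR was searched as TTTGAA or TTCGAA, the CCAAT box as CCAAT and the E2F core as TTCCCGC or TTGGCGC, each on both strands. Of 49 promoters of 47 tested mitotic genes, 34 (69.4%) held a CHR and 26 (53.1%) both a CHR and a CCAAT box, against 14.5% and 5.94% of 8974 promoters of all tested genes and 19.2% and 7.52% of all 32851 promoters. Of 45 promoters of 35 tested replication genes, 24 (53.3%) held an E2F core, against 11.6% and 6.81%. A match of letters is a description and does not mark a bound site. The genes printed below were picked among members whose printed bases hold the motif looked for in their list. Their motifs are therefore part of the choice and no finding. The 200 bases before the start are printed for 2 mitotic genes and 2 replication genes that were lower in all 3 pairs, with every match to these motifs in capitals, for Cdc20 (chr4:118437344-118437543, minus strand), Smc2 (chr4:52439021-52439220, plus strand), Mcm5 (chr8:75109309-75109508, plus strand) and Pola1 (chrX:93632156-93632355, minus strand).
Cdc20: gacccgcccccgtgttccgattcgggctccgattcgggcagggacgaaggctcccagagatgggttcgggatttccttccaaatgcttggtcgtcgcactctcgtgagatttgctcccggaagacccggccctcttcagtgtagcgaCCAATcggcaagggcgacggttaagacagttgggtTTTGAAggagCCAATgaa
Smc2: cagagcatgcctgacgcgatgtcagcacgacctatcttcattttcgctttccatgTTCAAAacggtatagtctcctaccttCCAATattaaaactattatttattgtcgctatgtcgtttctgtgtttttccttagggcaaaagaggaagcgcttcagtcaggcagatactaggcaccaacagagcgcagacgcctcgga
Mcm5: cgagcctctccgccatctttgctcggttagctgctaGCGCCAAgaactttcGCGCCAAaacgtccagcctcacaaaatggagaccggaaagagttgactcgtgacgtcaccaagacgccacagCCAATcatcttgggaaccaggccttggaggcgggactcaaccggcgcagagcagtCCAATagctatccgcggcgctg
Pola1: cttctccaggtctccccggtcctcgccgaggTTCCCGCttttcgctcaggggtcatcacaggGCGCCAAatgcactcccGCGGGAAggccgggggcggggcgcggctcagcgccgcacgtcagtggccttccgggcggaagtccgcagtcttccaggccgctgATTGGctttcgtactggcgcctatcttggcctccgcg

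Cdc20 holds TTTGAA between 2 CCAAT boxes close to the start, while in Smc2 the CHR is read on the other strand as TTCAAA. In Mcm5 and Pola1 the E2F core is read on the other strand as GCGCCAA or GCGGGAA, and in Pola1 also on the printed strand as TTCCCGC.

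The list of DNA replication licensing and forks had 63 members, of which 44 were tested. At day 10, 26 of these (59.1% against 14.7% of all genes) were lower in all 3 pairs and 4 higher (9.09% against 15.6%). At an unadjusted p-value under 0.05, 13 (29.5% against 3.72%) were lower and 0 higher. The median log2 fold change was -0.27 (-0.45, -0.17 and -0.12 in pairs 1, 2 and 3). Mcm5, a subunit of the MCM helicase that is loaded at origins, had 49.9, 89.6 and 44.9 FPKM at day 7 and 22.1, 62.5 and 32.4 FPKM at day 10 and a log2 fold change of -0.70 ± 0.17 (adjusted p = 0.628, limma). Orc1, the largest subunit of the origin recognition complex, had 2.76, 6.40 and 3.56 FPKM at day 7 and 1.66, 3.32 and 2.36 FPKM at day 10, a log2 fold change of -0.57 ± 0.15. Mcm4, of the same helicase, differed by -0.41 ± 0.11. Without replicate 2 the median was -0.30, but 1 member remained under an unadjusted 0.05, as was the case without the block.

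The groups of replication genes did not overlap in 3 lower (6.82%) and 2 higher members (4.55%), near the 4.16% of all genes in each direction. Orc6, a further subunit of the origin recognition complex, had 0.744, 1.35 and 0.859 FPKM at day 7 and 0.320, 0.684 and 0.328 FPKM at day 10. Pola1, the catalytic subunit of the polymerase that makes primers, had 7.38, 7.92 and 5.69 FPKM at day 7 and 4.81, 5.599 and 5.19 FPKM at day 10. In both genes each library of day 10 lay below each of day 7. Dnmt1, which copies DNA methylation behind the fork, had log2 fold change -0.17 ± 0.16 at levels under 1 FPKM. The higher members were Rfc3, of the clamp loader, with 0.21 ± 0.17 and levels of at most 1.08 FPKM, and Pola2, the partner of Pola1, with 0.14 ± 0.14 and levels of at most 1.09 FPKM. Pcna, the sliding clamp and the most abundant of the replication genes named here, had 162, 201 and 147 FPKM at day 7 and 108, 180.1 and 131 FPKM at day 10 and a log2 fold change of -0.30 ± 0.12.

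Enzymes of nucleotide synthesis lay lower as well, in 20 of 21 tested members (25 in the list). In all 3 pairs 10 were lower (47.6% against 14.7% of all genes) and 0 higher (0.0% against 15.6%). Rrm2, the small subunit of ribonucleotide reductase, which limits the supply of deoxynucleotides, had 48.6, 130.2 and 45.2 FPKM at day 7 and 21.5, 84.3 and 34.3 FPKM at day 10, a log2 fold change of -0.72 ± 0.17. Cad, which starts pyrimidine synthesis, had 23.0, 50.5 and 29.9 FPKM at day 7 and 19.8, 24.7 and 20.0 FPKM at day 10. Mthfd1, an enzyme of the folate cycle, had 1.68, 2.45 and 1.31 FPKM at day 7 and 0.865, 1.02 and 0.911 FPKM at day 10.

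Cad and Mthfd1 differed by -0.59 ± 0.18 and -0.52 ± 0.17. Umps, the last enzyme of the pyrimidine path, had 21.6, 23.2 and 21.2 FPKM at day 7 and 14.2, 19.9 and 18.3 FPKM at day 10. The groups did not overlap in Mthfd1 and in Umps, both lower (9.52% of tested members against 4.16% of all genes). Rrm1, the large subunit of ribonucleotide reductase, differed by -0.45 ± 0.15. Histone H3 gene Hist1h3c had 8.23, 11.2 and 7.09 FPKM at day 7 and 2.15, 8.66 and 3.30 FPKM at day 10, a log2 fold change of -0.93 ± 0.26 that rested on 12 to 55 recovered reads a library. Its coding sequence is close to that of other histone H3 genes, and most histone mRNAs carry no poly(A) tail, so the level of this gene is uncertain in a library selected by poly(A).

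Among 29 genes of G1 control and of cell cycle brakes, 19 were tested. At an unadjusted p-value under 0.05, 1 was higher (5.26% against 4.16% of all genes) and 3 were lower (15.8% against 3.72%). Cdkn2b, or p15, an inhibitor of CDK4 and CDK6, had 261, 222 and 302 FPKM at day 7 and 373, 265 and 345 FPKM at day 10, a log2 fold change of 0.32 ± 0.10, and was higher in each pair. Ccnd2, a D cyclin that activates the same kinases, had 9.03, 7.52 and 8.996 FPKM at day 7 and 6.45, 4.66 and 6.44 FPKM at day 10, and its day 10 libraries all lay below those of day 7 (-0.48 ± 0.13). E2f8, a repressing E2F factor of S phase, differed by -0.54 ± 0.20, and Rbl1, the pocket protein p107, by -0.38 ± 0.14.

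Of 18 tested p53 targets, 1 (5.56% against 4.16% of all genes) was higher at that p-value, Psrc1 with 0.39 ± 0.12, and 0 were lower. In all 3 pairs 2 were higher (11.1% against 15.6%), and the median was 0.06. Without replicate 2 the log2 fold changes of Cdkn2b, Ccnd2 and Psrc1 were 0.36, -0.43 and 0.44. Since Cdkn2b and Ccnd2 each had the same direction in all 3 pairs, their sign could not change.

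Genes of ribosome assembly lay lower at day 10, and the ribosomal proteins had a median near 0. Of 18 tested assembly factors (24 in the list), 9 were lower in all 3 pairs and 7 (38.9%) at an unadjusted p-value under 0.05, with 1 and 0 higher, and the median was -0.25 (-0.38, -0.24 and -0.19 by pair). Without replicate 2 the median was -0.27 with 1 member lower at that p-value, and without the block 0 were. Rrp12, which exports ribosomal subunits from the nucleus, had 23.7, 44.8 and 30.6 FPKM at day 7 and 17.3, 31.4 and 19.51 FPKM at day 10, a log2 fold change of -0.52 ± 0.11 (adjusted p = 0.628, limma). Ddx21, a nucleolar RNA helicase, had 80.9, 121 and 89.8 FPKM at day 7 and 58.9, 92.3 and 76.4 FPKM at day 10, differing by -0.36 ± 0.10. Of 35 tested cytosolic ribosomal proteins, 4 were lower (11.4% against 14.7%) and 1 higher (2.86% against 15.6%) in all 3 pairs. Their median was 0.01 with pair medians of -0.27, 0.20 and 0.06. The difference between both lists was not tested.

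The proliferins, secreted proteins of the prolactin family that are known from the placenta and from growing cells, lay lower at day 10 as well. Prl2c3 had 44.5, 176 and 163 FPKM at day 7 and 32.1, 72.7 and 53.1 FPKM at day 10 and a log2 fold change of -1.11 ± 0.24. Prl2c2 had 1.39, 2.11 and 1.95 FPKM at day 7 and 0.518, 1.31 and 1.27 FPKM at day 10 with groups that did not overlap (-0.49 ± 0.15). Both genes are near-identical copies of one another and of further family members, so reads may be split between them, and 4 of the 6 family members were not tested.

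**Figure D2:**
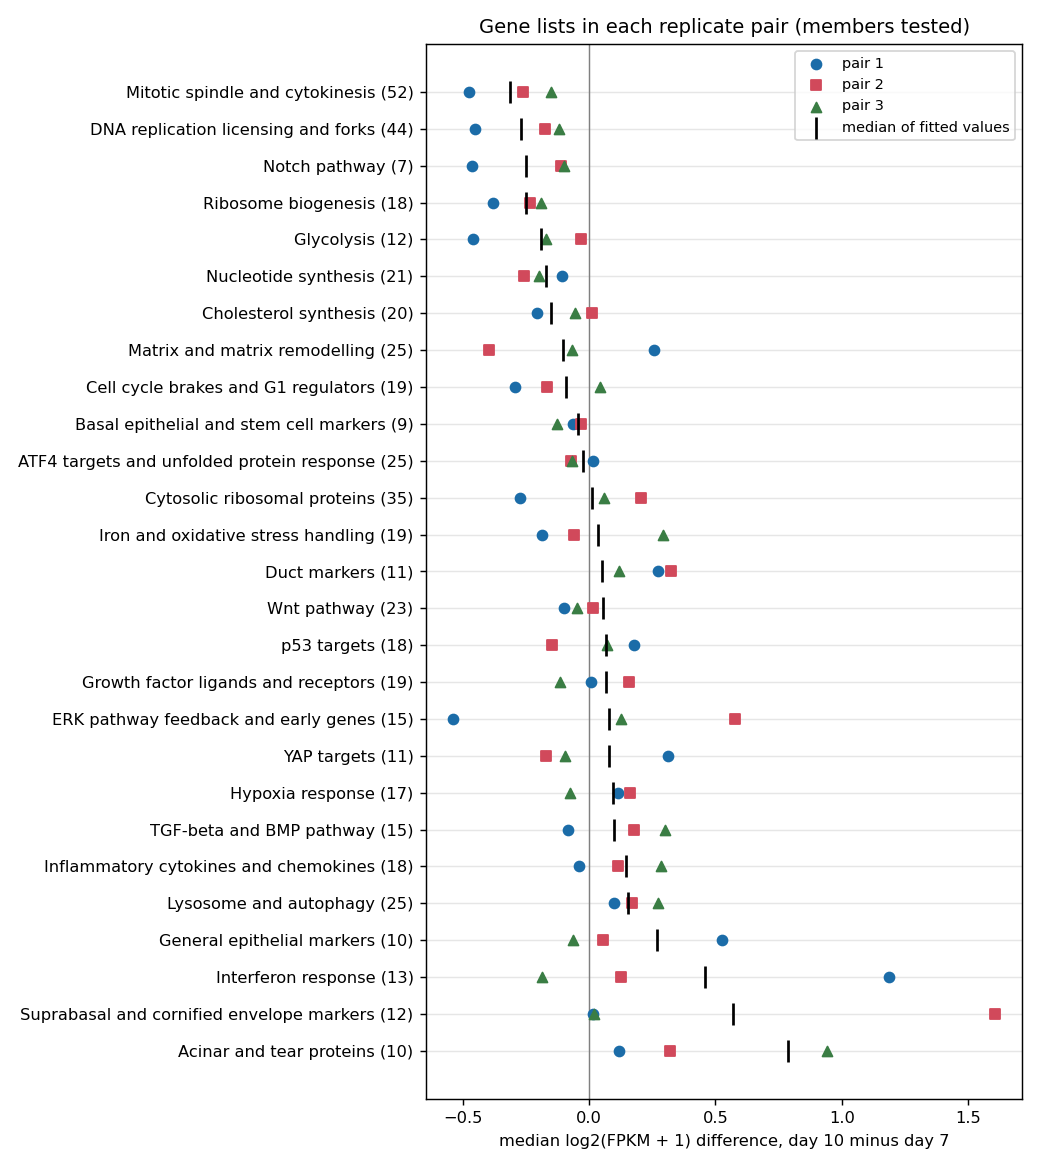
Median difference of log2(FPKM + 1), day 10 minus day 7, for each gene list with at least 7 members tested (their number in brackets). Coloured points are the medians of pairs 1, 2 and 3 and black bars the median of the fitted log2 fold changes, from -0.32 for the mitotic list to 0.79 for the acinar list, where the pairs lie from 0.12 to 0.94. The acinar list holds members that passed the filter only through day 10 replicate 3.

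The largest higher values at day 10 were found outside the cell cycle lists. By rule the genes named were the 12 largest log2 fold changes among genes with a symbol, a mean of at least 5 FPKM, the same sign in all pairs and an unadjusted p-value under 0.05. The lincRNA gene BC037156 had 2.01, 0.297 and 2.34 FPKM at day 7 and 14.7, 3.62 and 16.1 FPKM at day 10, the smallest adjusted p-value of a gene longer than 200 bases (2.19 ± 0.18, adjusted p = 0.329, limma). Its groups did not overlap, and the values rest on 1 to 60 recovered reads a library. AA467197 had 2.06, 11.3 and 3.99 FPKM at day 7 and 22.5, 36.9 and 6.34 FPKM at day 10, a log2 fold change of 1.71 ± 0.46 with overlapping groups.

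Spp1, or osteopontin, a secreted phosphoprotein of the matrix, had 264, 81.5 and 489.9 FPKM at day 7 and 1140, 94.9 and 1998 FPKM at day 10. It was far higher at day 10 in replicates 1 and 3 and near its day 7 level in replicate 2, with a log2 fold change of 1.45 ± 0.40 and of 2.07 without replicate 2. Igfbp5, which binds insulin-like growth factors, showed the same order of replicates with 4.77, 0.383 and 3.53 FPKM at day 7 and 19.3, 0.584 and 22.1 FPKM at day 10 and log2 fold changes of 1.45 ± 0.44 and 2.08.

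Clca3a2, of a family of regulators of calcium-activated chloride channels, had 72.7, 0.322 and 17.4 FPKM at day 7 and 100.5, 3.27 and 69.8 FPKM at day 10. Clec2e, a C-type lectin, had 11.6, 4.93 and 8.72 FPKM at day 7 and 34.1, 6.50 and 41.7 FPKM at day 10. Their log2 fold changes were 1.37 ± 0.31 and 1.32 ± 0.36. In all 4 of these genes replicate 2 was the lowest library on both days, so that its day 10 value lay below the day 7 values of replicates 1 and 3.

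Since small RNA loci filled many places of the rule, further genes of at least 200 bases were taken in the same order after their values were seen. Abca1, which exports cholesterol from cells, had 10.4, 1.37 and 12.1 FPKM at day 7 and 25.9, 5.10 and 29.2 FPKM at day 10, a log2 fold change of 1.27 ± 0.12 that varied little between pairs (adjusted p = 0.391, limma). Pdlim4, an actin-binding protein, had 14.1, 1.95 and 19.0 FPKM at day 7 and 39.5, 5.78 and 37.6 FPKM at day 10 (1.19 ± 0.14). Slfn2, of the Schlafen family, had 18.8, 8.99 and 18.3 FPKM at day 7 and 54.5, 27.4 and 31.0 FPKM at day 10, and every library of day 10 lay above every library of day 7 (1.24 ± 0.19).

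Rgs5, a regulator of G protein signalling, differed by 1.05 ± 0.18. Cldn8, a claudin of tight junctions, differed by 1.06 ± 0.28, with 2.06, 11.8 and 2.09 at day 7 and 3.89, 45.5 and 3.88 at day 10 FPKM, where replicate 2 was the highest library on both days.

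Among the largest lower values the rule named Tubb3, a beta-tubulin known from neurons, with 2.49, 143 and 3.47 FPKM at day 7 and 0.303, 49.4 and 1.49 FPKM at day 10. Its difference was the largest among the protein-coding genes named on this side (-1.26 ± 0.18, adjusted p = 0.594, limma). Replicate 2 held most of its signal on both days, and without it the log2 fold change was -1.13. Styx, a pseudophosphatase, had 8.68, 7.80 and 11.96 FPKM at day 7 and 4.71, 1.55 and 8.95 FPKM at day 10, a log2 fold change of -0.98 ± 0.30 against -0.57 without replicate 2.

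**Figure D3:**
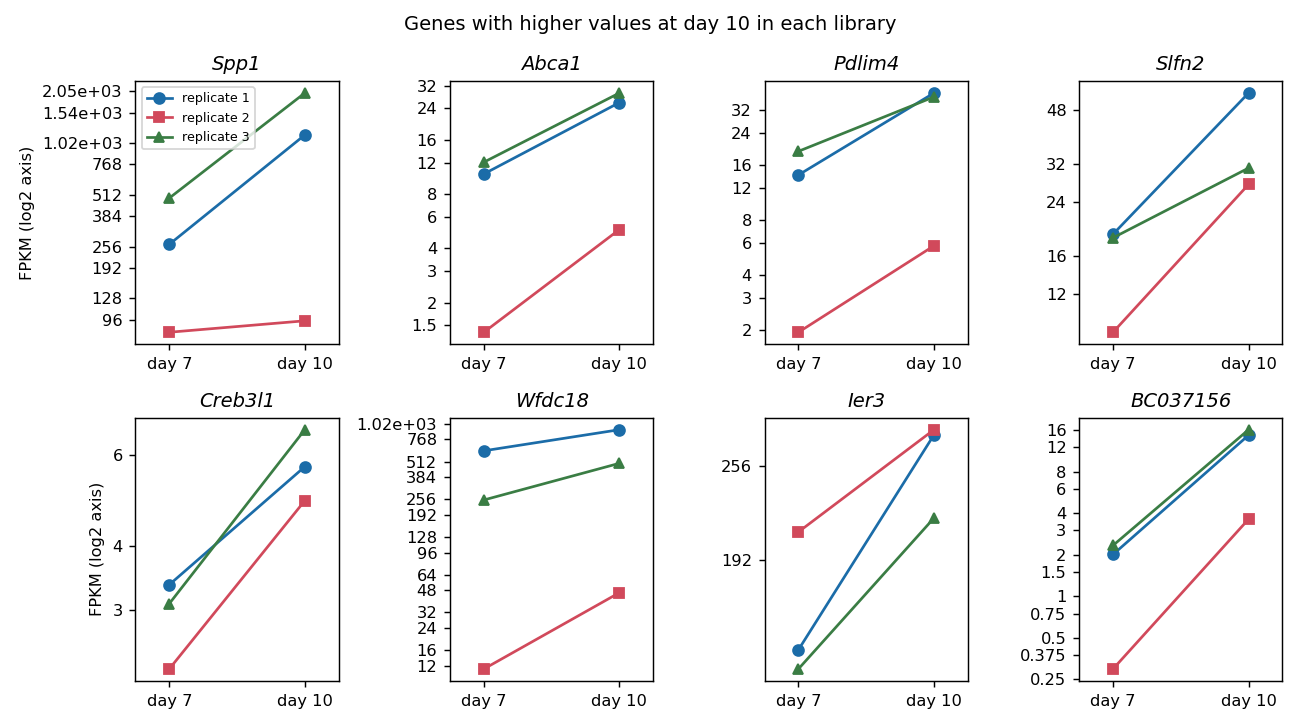
FPKM on a log2 axis at day 7 and day 10 for 8 genes with higher values at day 10. Each line joins the 2 libraries of 1 replicate number, and replicate 2 starts below the others in all panels but that of Ier3, as for Abca1 with 1.37 and 5.10 FPKM.

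Markers of acinar cells, which make the tear proteins, had positive log2 fold changes in all 10 tested members of 33, with 3 higher at an unadjusted p-value under 0.05, 3 higher in all 3 pairs and a median of 0.79. This median was 0.31 without replicate 3. Some members, such as Mucl2 and Scgb2b2 described below, passed the filter only through day 10 replicate 3. Their positive sign was therefore fixed by the filter. The count of positive members and the median of 0.79 include them and do not by themselves show a rise of the list. Creb3l1, a transcription factor of secretory cells, had 3.36, 2.31 and 3.09 FPKM at day 7 and 5.69, 4.89 and 6.71 FPKM at day 10, with groups that did not overlap (0.79 ± 0.14, adjusted p = 0.594, limma). Wfdc18, a secreted protease inhibitor, had 624, 11.3 and 253 FPKM at day 7 and 919, 46.0 and 496 FPKM at day 10 (1.15 ± 0.27). Pigr, the carrier of secreted immunoglobulin, had 0.671, 0 and 0.194 FPKM at day 7 and 1.01, 0.419 and 2.61 FPKM at day 10 (0.79 ± 0.30).

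Part of the acinar list was seen in 1 library only. Mucl2, a mucin-like tear protein, had 0, 0 and 0 FPKM at day 7 and 0.179, 0 and 45.7 FPKM at day 10. Scgb2b2, a secretoglobin, had 0, 0 and 0 FPKM at day 7 and 0, 0 and 32.2 FPKM at day 10, while the other 5 libraries held at most 0.179 FPKM of either. These are the genes with the highest levels in the adult gland. Of the 20 genes with the highest mean in adult LG, 16 were under 0.5 FPKM in every day 7 library, and in day 10 replicate 3 as many as 11 of these reached 0.5 FPKM, with a sum of 114 FPKM. The sum of the same 16 genes was 0.573 and 4.69 FPKM in day 10 replicates 1 and 2 and at most 0.487 FPKM at day 7. It was also high in day 5 replicate 2 (146 FPKM) and in day 14 replicate 3 (111 FPKM), and the part of adult gland RNA in these values was not tested. Wfdc18 is among the 20 genes, but was already abundant at day 7. Ltf, or lactoferrin, a secreted protein of the gland that the study followed, stayed under the filter with 0.0626, 0.0371 and 0.129 FPKM at day 7 and 0.721, 0.226 and 0.804 FPKM at day 10. Aqp5, a water channel of acinar cells, was listed at 0 in 5 of the 6 libraries of days 7 and 10, with 0.0779 FPKM in day 10 replicate 2, and had 0.472 to 0.568 FPKM in adult LG.

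Of 16 duct markers, 11 were tested, and 2 were higher at an unadjusted p-value under 0.05 (18.2% against 4.16% of all genes) and 0 lower. In all 3 pairs 3 were higher (27.3% against 15.6%) and 1 lower (9.09% against 14.7%). The median was 0.05 with 4 negative members. The pair medians were 0.27, 0.32 and 0.12, and the median was 0.33, 0.26 and 0.18 without replicates 1, 2 and 3. Wfdc2, a secreted protease inhibitor of duct cells, had 605, 322 and 424 FPKM at day 7 and 731, 403 and 536 FPKM at day 10, a log2 fold change of 0.31 ± 0.07. Muc1, a membrane mucin, had 1.20, 1.20 and 0.476 FPKM at day 7 and 2.02, 1.55 and 1.53 FPKM at day 10 with groups that did not overlap (0.48 ± 0.18). Krt7, a keratin of ducts, was higher in replicates 1 and 2 (10.3, 0.997 and 10.1 at day 7 and 15.9, 2.48 and 9.75 at day 10 FPKM). Clcn3, a chloride transporter, was the member lower in all 3 pairs, with 1.58, 1.42 and 1.31 FPKM at day 7 and 1.15, 0.936 and 0.779 FPKM at day 10 and groups that did not overlap (-0.32 ± 0.14). Krt19, the duct keratin that the study followed, stayed under the filter with 0.349, 0.0689 and 0.241 FPKM at day 7 and 0.853, 0.0700 and 0.125 FPKM at day 10 and was higher in replicate 1 but not in replicate 3.

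Among 9 tested basal and stem cell markers of 21, 3 (33.3%) were lower and 1 (11.1%) higher in all 3 pairs, against 14.7% and 15.6% of all genes. Their median was -0.05 with 4 positive members, and it turned to 0.06 without replicate 1. Cd109, a surface protein that binds TGF-beta, had 2.99, 3.22 and 2.22 FPKM at day 7 and 1.18, 1.47 and 0.972 FPKM at day 10, with every library of day 10 below every library of day 7 (-0.78 ± 0.15, adjusted p = 0.594, limma). Krt14 and Krt17 differed by -0.38 ± 0.22 and -0.24 ± 0.14, and Cdh1 by -0.00399 ± 0.17. The highest value was that of Krt15, another basal keratin, which differed by 1.03 ± 1.01 and was higher in replicates 2 and 3 and lower in replicate 1.

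The suprabasal list had a median of 0.57 that came from replicate 2, with pair medians of 0.02, 1.61 and 0.02, and of -0.01 without replicate 2. Of the 12 tested suprabasal members (31 in the list), 1 was higher at an unadjusted p-value under 0.05 (8.33% against 4.16% of all genes). It was the protease Klk8 (0.210, 2.57 and 0.145 at day 7 and 0.807, 6.32 and 0.450 at day 10 FPKM). In the myoepithelial list, of which 5 of 12 were tested, Acta2, or smooth muscle actin, had 13.3, 2.37 and 9.91 FPKM at day 7 and 32.5, 1.02 and 82.8 FPKM at day 10. It was higher in replicates 1 and 3 and lower in replicate 2, so that its standard error was large (1.14 ± 0.69).

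Lysosome and autophagy genes lay higher at day 10 by a small amount. Of 25 tested members (31 in the list), 23 had a positive log2 fold change, and 7 (28.0% against 15.6% of all genes) were higher and 0 lower in all 3 pairs. At an unadjusted p-value under 0.05, 4 (16.0% against 4.16%) were higher and 0 lower, with a median of 0.15 (0.10, 0.17 and 0.27 by pair). Without replicate 2, and also without the block, 0 members were under that p-value, and the median was 0.25, 0.14 and 0.08 without replicates 1, 2 and 3. Map1lc3b, the LC3 protein of autophagosomes, had 40.8, 34.1 and 36.3 FPKM at day 7 and 48.3, 42.2 and 48.3 FPKM at day 10. The cathepsin Ctsh had 174, 118 and 208 FPKM at day 7 and 212, 140.2 and 264 FPKM at day 10. The groups did not overlap for Map1lc3b (0.31 ± 0.10), Psap (0.40 ± 0.16) and Npc2 (0.22 ± 0.12), the last of which binds cholesterol in the lysosome. Ctsh differed by 0.29 ± 0.08 and Ctsz, another cathepsin, by 0.39 ± 0.15. In pairs 1 and 3 alone, 13 of the 25 were higher in both, against 26.5% of all genes, and 0 were lower in both, against 25.6%.

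The medium supplied EGF and FGF10, and the genes read out from ERK differed in direction between pairs. Of 15 tested ERK feedback and early genes (27 in the list), 2 were higher (13.3% against 4.16% of all genes) and 0 lower at an unadjusted p-value under 0.05. The pair medians were -0.54, 0.58 and 0.13. Ier3, an immediate early gene, had 146, 209 and 138 FPKM at day 7 and 281, 286 and 218 FPKM at day 10 with groups that did not overlap (0.68 ± 0.12, adjusted p = 0.594, limma). Dusp5, the nuclear phosphatase that switches off ERK, had 21.4, 40.5 and 17.1 FPKM at day 7 and 38.8, 119 and 28.7 FPKM at day 10, higher in each pair with overlapping groups (1.02 ± 0.19).

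Among 45 ligands and receptors of growth factors, 19 were tested. At an unadjusted p-value under 0.05, 2 were higher (10.5% against 4.16% of all genes) and 4 lower (21.1% against 3.72%). The median was 0.07, and 5 members were higher (26.3% against 15.6%) and 4 lower (21.1% against 14.7%) in all 3 pairs. The lower genes included Gdnf, a neurotrophic ligand, which had 3.29, 6.38 and 4.49 FPKM at day 7 and 1.10, 4.14 and 3.62 FPKM at day 10. Ret, a receptor kinase, had 3.80, 6.81 and 6.08 FPKM at day 7 and 2.72, 4.38 and 3.66 FPKM at day 10. Gfra2, a co-receptor of Ret that prefers neurturin, had 2.50, 7.94 and 6.71 FPKM at day 7 and 1.34, 3.34 and 3.47 FPKM at day 10.

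All 3 were lower in each pair with overlapping groups, and the log2 fold changes were -0.60 ± 0.20 for Gdnf, -0.50 ± 0.14 for Ret and -0.80 ± 0.16 for Gfra2 (adjusted p = 0.619, limma). The 4th was Vegfc, a growth factor of lymphatic vessels (-0.41 ± 0.14). Igfbp3, which binds insulin-like growth factors, had 242, 199 and 232 FPKM at day 7 and 314, 244 and 349.8 FPKM at day 10, with every day 10 library above every day 7 library (0.42 ± 0.10).

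Of 23 tested genes of the Wnt pathway (44 in the list), 3 were higher at an unadjusted p-value under 0.05 (13.0% against 4.16% of all genes). At that p-value 2 were lower (8.70% against 3.72%), and the median was 0.06. The pair medians were -0.10, 0.02 and -0.05, and the median was -0.02, 0.09 and -0.04 without replicates 1, 2 and 3. In all 3 pairs 5 were higher (21.7% against 15.6%) and 6 lower (26.1% against 14.7%). Sp5, a direct target of beta-catenin, had 1.08, 0.0609 and 0.266 FPKM at day 7 and 2.21, 0.618 and 1.60 FPKM at day 10 (0.76 ± 0.16). Dkk2, a secreted antagonist, had 6.59, 0.552 and 6.72 FPKM at day 7 and 21.7, 2.21 and 7.96 FPKM at day 10 (0.95 ± 0.29). The ligand Wnt5a had 0.621, 16.8 and 1.10 FPKM at day 7 and 1.18, 23.4 and 3.69 FPKM at day 10 (0.68 ± 0.20).

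The lower Wnt genes were the ligand Wnt10a, with 40.5, 185 and 25.7 FPKM at day 7 and 15.8, 139 and 19.6 FPKM at day 10 (-0.69 ± 0.22), and the receptor Fzd1 (-0.30 ± 0.10). In Wnt5a and Wnt10a replicate 2 was the highest library on both days. Of 7 tested Notch genes (21 in the list), 2 were lower at an unadjusted p-value under 0.05 (28.6% against 3.72% of all genes). The ligand Jag1 had 3.003, 2.61 and 3.20 FPKM at day 7 and 1.90, 1.89 and 1.81 FPKM at day 10, with groups that did not overlap (-0.46 ± 0.15), and Lfng, which modifies Notch receptors, differed by -0.65 ± 0.19.

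In the TGF-beta and BMP list, 15 of 35 members were tested and 2 were higher at an unadjusted p-value under 0.05 (13.3% against 4.16% of all genes). Gdf15, a stress-induced ligand of the family, had 16.2, 21.0 and 35.4 FPKM at day 7 and 45.1, 29.2 and 67.9 FPKM at day 10 (0.93 ± 0.20). Smad6, an inhibitor of BMP signalling, differed by 0.35 ± 0.12. Of 11 tested YAP targets and 17 tested genes of the hypoxia response, 0 had an unadjusted p-value under 0.05 in either direction, with medians of 0.08 and 0.09. All 13 tested interferon genes had positive log2 fold changes with a median of 0.46. Only 4 were higher in all 3 pairs (30.8% against 15.6% of all genes), and the pair medians were 1.19, 0.12 and -0.19. Ifit1, an antiviral effector, had 1.22, 0.626 and 1.72 FPKM at day 7 and 4.51, 1.32 and 2.61 FPKM at day 10 (0.74 ± 0.23).

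All 12 tested glycolysis genes had negative log2 fold changes, and the median was -0.19. Of these, 4 were lower in all 3 pairs (33.3% against 14.7% of all genes) and 1 at an unadjusted p-value under 0.05 (8.33% against 3.72%). The pair medians were -0.46, -0.03 and -0.17, and without replicate 1 the median was -0.08. Eno1, an enolase, had 662, 815 and 669 FPKM at day 7 and 504, 759.7 and 554 FPKM at day 10 (-0.26 ± 0.09).

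Of 25 tested targets of ATF4 and the unfolded protein response, 1 was higher at an unadjusted p-value under 0.05, Nupr1 with 0.74 ± 0.24, and 1 lower, Sdf2l1 with -0.26 ± 0.10. Each is 4.0% of the list, near the 4.16% and 3.72% of all genes. Of 19 tested genes of iron and oxidative stress handling, 1 was higher (5.26%) and 2 lower (10.5%) at that p-value. Gpx4, which reduces lipid peroxides, had 479, 221 and 511 FPKM at day 7 and 586, 276 and 747 FPKM at day 10 (0.39 ± 0.09). The lower genes were the NRF2 targets Nqo1 (-0.47 ± 0.17) and Srxn1 (-0.27 ± 0.10). Of 25 tested matrix genes 2 were higher at that p-value (8.0% against 4.16% of all genes) and 0 lower. The list as a whole did not lie higher, with 9 positive and 16 negative members and a median of -0.11. Its pair medians were 0.26, -0.40 and -0.07. In all 3 pairs 4 were higher (16.0% against 15.6%) and 5 lower (20.0% against 14.7%). Timp1, an inhibitor of matrix proteases, differed by 0.52 ± 0.18, with 266, 94.2 and 214 at day 7 and 478, 95.3 and 348 at day 10 FPKM. Plat, the tissue plasminogen activator, differed by 0.52 ± 0.17, with 14.7, 15.8 and 23.0 at day 7 and 29.4, 19.45 and 29.5 at day 10 FPKM. Of 18 tested cytokines and chemokines, 0 had an unadjusted p-value under 0.05.

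The libraries of days 5 and 14 showed where day 10 lay in the culture series. They entered no test, and each difference below is taken from the day 7 library of the same replicate number, so that the days share these libraries. For the mitotic list the median difference from day 7 was 0.62 and 0.20 at day 5 in replicates 1 and 2, then -0.48, -0.26 and -0.15 at day 10, and -0.99, -1.05 and -0.73 at day 14. For the replication list the day 5 medians were 0.36 and 0.04, those of day 10 were -0.45, -0.17 and -0.12, and by day 14 they had reached -0.73, -0.85 and -0.54. In each replicate the medians of both lists at day 10 lay between those of days 7 and 14, nearer to day 7 but for the replication list in replicate 1.

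Single genes followed this order in part. Plk1 had 78.8 and 77.5 FPKM in replicates 1 and 2 at day 5 and 15.7, 15.8 and 12.04 FPKM at day 14. Cdc20 had 201 and 189 FPKM in replicates 1 and 2 at day 5 and 30.2, 51.4 and 29.2 FPKM at day 14. Day 14 was the lowest day for both genes in each replicate, while in replicate 2 day 5 lay below day 7. Prl2c3 had 71.6 and 297 FPKM in replicates 1 and 2 at day 5 and 11.5, 15.5 and 41.0 FPKM at day 14. On the higher side, Spp1 had 246 and 132 FPKM in replicates 1 and 2 at day 5 and 3416, 84.3 and 2901 FPKM at day 14, with replicate 2 again near the level of its other days. AA467197 had 1.17 and 7.11 FPKM in replicates 1 and 2 at day 5 and 60.2, 119 and 119 FPKM at day 14. Slfn2 had 16.0 and 29.8 FPKM in replicates 1 and 2 at day 5 and 36.7, 45.5 and 72.9 FPKM at day 14, which gave no steady order of days in replicates 1 and 2. Ribosome assembly did not follow the mitotic list in replicate 1, where its median was -0.38 at day 10 and -0.11 at day 14, nor in replicate 2, where it was -0.25 at day 5.

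**Figure D4:**
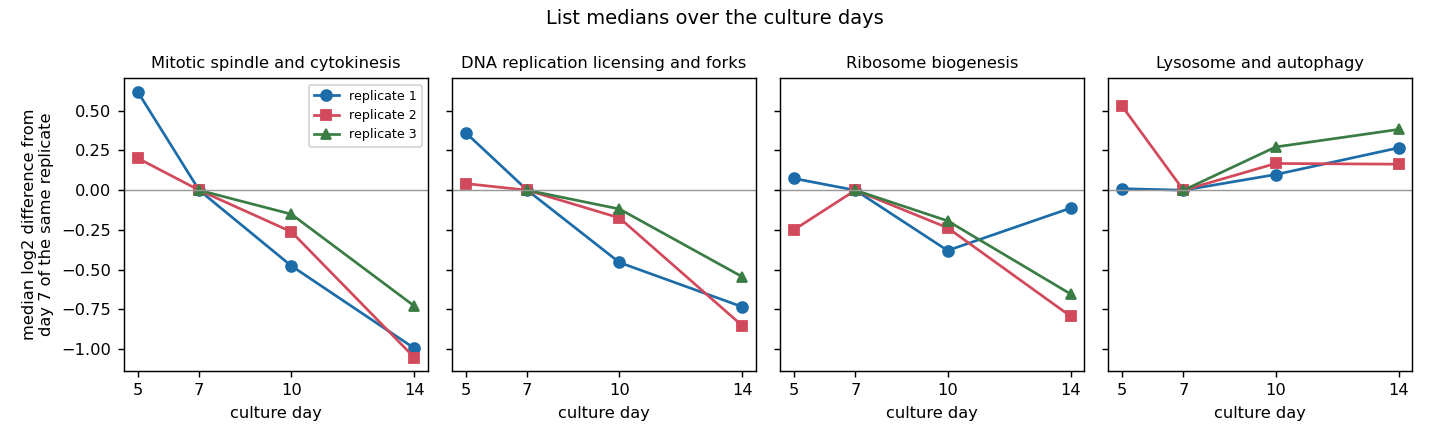
Median log2(FPKM + 1) difference over the tested members of 4 lists from the day 7 library of the same replicate number, plotted against culture day. Lines are replicates 1 to 3 (replicate 3 has no day 5 library here), and the mitotic list goes from 0.62 and 0.20 at day 5 to between -1.05 and -0.73 at day 14.

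The largest fold changes of the whole comparison rested on few reads. Of 134 genes with an unadjusted p-value under 0.05 and a fold change past 2 (66 higher and 68 lower), 85 were shorter than 200 bases. The median length of the 134 was 108 bases, against 2975 over the genes tested. Loci without an annotated length, such as the assembled loci, did not enter these lengths. In the rule for the largest differences these were loci such as Mir99b, a miRNA hairpin with 7.71, 0 and 4.79 FPKM at day 7 and 48.4, 13.0 and 18.2 FPKM at day 10 from 0 to 30 recovered reads (2.68 ± 0.41). Mir23b, another hairpin, had 3 to 21 reads (2.04 ± 0.33). On the lower side the mitochondrial tRNA gene mt-Tg had 8 reads or fewer in every library (-2.58 ± 0.46), and the rRNA gene copy Gm23964 had 2 to 11 (-1.65 ± 0.20). Gm26202, a snoRNA locus with 3 to 19 reads, had an adjusted p-value as low as that of BC037156 (0.329, limma). Libraries selected by poly(A) and built for messenger RNA do not measure such short RNAs reliably, and no direction is read from them.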

How the data were processed

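Total RNA was extracted with Trizol and selected with poly-T beads, and libraries were made with the NEBNext Ultra kit and sequenced as paired ends. The submitters' processing notes name CASAVA 1.8, HISAT2 2.0.5, featureCounts 1.5.0-p3 and build NCBIM37, and the authors ran DESeq2 on counts. Each library has 1 table deposited by the authors, whose values were read here as FPKM from their size and steps, since the step that made them is not given in the sources used here. Symbols came from GENCODE M21, which held 52403 of 52636 Ensembl identifiers. Low FPKM values are whole multiples of 1 read, and reads recovered with gene lengths of that annotation had no fraction beyond 0.01 for 93.2% to 93.5% of genes with at most 1000 reads.

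The 6 libraries were fitted with limma 3.58.1 (R 4.3.3, lmFit and eBayes with trend) on log2(FPKM + 1), with day and replicate number as terms, for each gene whose mean FPKM was 0.5 or more, two-sided, with Benjamini-Hochberg adjustment at 0.05. The fold change on this scale understates that of low genes. The paired fit followed the comparison as defined. The deviations of same-numbered libraries from their day means were correlated across genes at 0.41, 0.72 and 0.40. These values set apart replicate 2 only, since day 7 replicate 3 correlated with day 10 replicate 1 at 0.43. For replicates 1 and 3 the pairing rests on the numbers in the labels alone. Alternatives were no block, a pseudocount of 0.1, no filter, a mean of at least 5 FPKM, upper-quartile scaling, limma-voom on recovered reads with TMM scaling, all passage 2 libraries in 1 fit and each pair left out. Limma-voom without the block was added after the data were seen. The scripts were tested on simulated data. No set test was run.

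The members and gene lists were chosen with earlier results of these data known. Genes were named by rule, as those passing the test, the 12 largest differences in each direction (a symbol, mean of at least 5 FPKM, the same sign in all pairs, unadjusted p under 0.05), up to 4 members per list with the smallest p-values, and the markers of the study. Genes whose groups do not overlap, members with a printed promoter and genes of at least 200 bases were named after their values were seen. Python 3.11.15 was used for tables and figures, with pandas 2.3.3, numpy 2.4.6 and matplotlib 3.10.9. Passage 6 and 20 libraries and a day 5 replicate were not analysed here. The results of some genes are not reported here.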

Additional observations from a re-analysis of the deposited data

How the results depend on the processing

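In the 11 alternatives 0 genes passed an adjusted p-value of 0.05 with limma or limma-voom. The fit with the replicate number as a block and the fit with no replicate block differed in their counts at an unadjusted 0.05, which were 645 higher and 576 lower with the block and 263 higher and 212 lower without it. In the paired fit 15 mitotic and 13 replication genes were lower at that p-value, and with no replicate block 1 of each was. Upper-quartile scaling gave 545 higher and 713 lower genes. Limma-voom without the block gave 140 higher and 141 lower genes, with 3 mitotic and 2 replication genes among them. With all passage 2 libraries in 1 fit the counts were 421 and 368, with 6 replication genes, and with a mean of at least 5 FPKM they were 257 and 232, with 8 replication genes, where fewer genes were tested. Leaving out 1 pair in turn gave 441 to 736 higher and 288 to 732 lower genes, 5 to 10 mitotic and 1 to 5 replication genes. The cause of these differences was not tested. The median of the mitotic list ranged from -0.42 to -0.17 and that of the replication list from -0.35 to -0.14 over the alternatives. A gene with the same sign in all 3 pairs cannot change sign when 1 pair is left out. Leaving out the block or changing the filter does not change the fitted value of a gene. The count of kept signs was therefore largely fixed in advance. Of 1134 values of named genes, 1128 kept their sign and 0 passed the threshold. The exceptions were Cdh1, which was at 0.014 with limma-voom and the block and from -0.22 to 0.18 with 1 pair left out, Krt15, which was from -0.28 to 2.41 with 1 pair left out, and Ly6d, which was at 0.11 with limma-voom and the block and from -1.12 to 0.77 with 1 pair left out. Of 373 list medians, 335 stayed within 1 SD of the pair medians. The depth of 7360565 to 7833161 recovered reads leaves genes near 1 FPKM, and loci shorter than 200 bases, with few reads each.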

Other observations

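In replicate 2, some genes known from stratified epithelium or fat cells were far higher at day 10 than in the other replicates. Krt15, a basal keratin, had 21.8, 31.4 and 4.68 FPKM at day 7 and 5.88, 407 and 11.7 FPKM at day 10, and 36.2 and 20.4 FPKM in replicates 1 and 2 at day 5 and 5.08, 719 and 18.7 FPKM at day 14. Ly6d, a surface protein of stratified and duct epithelium, had 122, 1127 and 40.7 FPKM at day 7 and 14.7, 1974 and 67.7 FPKM at day 10. Fabp4, a fatty acid carrier known from fat cells, had 0.746, 9.86 and 0.945 FPKM at day 7 and 0.806, 68.4 and 2.58 FPKM at day 10, and Dsc1, a desmocollin of cornifying epithelium, had 0, 4.26 and 0.0443 FPKM at day 7 and 0.0448, 30.04 and 0.0687 FPKM at day 10. The high values were all found in replicate 2, and none of the genes had an adjusted p-value under 0.05 with limma.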
